A study of Sus scrofa with 8 samples.

Results

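The genes of the cytosolic ribosomal proteins were compared between the endometrium of Meishan and Yorkshire gilts on day 12 of gestation, with the proteins of the large subunit (RPL genes and the stalk genes RPLP0, RPLP1 and RPLP2) set against those of the small subunit (RPS genes and RPSA). Endometrium came from 4 Meishan and 4 Yorkshire gilts, each mated to boars of its own breed, and each gilt was measured on 1 one-colour Affymetrix Porcine Genome array. Neither breed received a treatment, and all uteri used held filamentous conceptuses. A probeset, a group of short probes against 1 transcript, was a member when its gene symbol began with RPL or RPS and a digit, or was one of the stalk genes or RPSA, and the S6 kinases and mitochondrial ribosomal proteins were left out. This gave 134 of 23999 non-control probesets. The annotation of the array named 96 of them, 59 of the large and 37 of the small subunit, which stood for 38 large subunit genes and 26 small subunit genes. Among these 64 genes were 6 paralogs or partner genes that carry such a symbol. The other 38 members were named by the study's supplementary list of probesets called on these same samples, and not by a single symbol of the annotation. That choice used the breed difference, so they are described apart, without a test.

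The ribosome is built from a small subunit, which binds the mRNA and reads its codons, and a large subunit, which joins amino acids into protein. Each holds ribosomal RNA and many small, mostly basic proteins, most of which are needed in equal numbers. The mRNAs of these proteins share a terminal oligopyrimidine start through which their translation follows nutrient signals. On day 12 the uterine glands of the pig secrete large amounts of protein toward the elongating conceptuses. Ribosomal protein genes have many processed pseudogenes in mammalian genomes, so a probeset can share sequence with copies elsewhere.

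Values are signals after each array was centred on the median of its log2 signals, breed means are geometric, and a log2 difference is Meishan minus Yorkshire with its standard error (SE) from limma. A probeset was called at a Benjamini-Hochberg adjusted p under 0.1 over all 23999 probesets. The arrays had been scaled to the same trimmed mean, and their median signal lay between 168 and 195. The brightest signals of the Meishan arrays were higher, with maxima before centring of 36713 to 56074 against 26698 to 30900 in Yorkshire. Bacterial and phage control sequences that are added to each hybridization were also higher in all 4 Meishan arrays, with mean signals of 4305 to 6659 against 2124 to 2990, a log2 difference of 1.00, and the poly-A controls did the same (0.60). Ratios of 3′ to 5′ signal of actin, which fall as RNA is better preserved, overlapped between the breeds (1.56 to 3.32 in Meishan, 2.01 to 4.45 in Yorkshire). The gland product ACP5 (mean signal 21430 in Meishan, 23005 in Yorkshire), the epithelial markers EPCAM (10980 and 10170) and CDH1 (8193 and 8230) and the stromal marker DCN (18755 and 15540) were bright in both breeds, and the mean log2 signals of the endometrial, epithelial, stromal, smooth muscle, blood and conceptus marker lists overlapped. VIM, which marks stroma and also has a terminal oligopyrimidine mRNA, was 25493 and 18368, while the collagen COL3A1 was 786 and 1362. Of the endometrial markers the progesterone receptor PGR was 336 and 495 without overlap, and SPP1 was 1025 and 2327. The endothelial marker CDH5 was 1229 and 1839. The endothelial list as a whole, 3 markers, had mean log2 signals of 9.17 to 9.43 in Meishan and 9.33 to 9.90 in Yorkshire. Of the 4 leukocyte markers CD79B was called (80.4 and 34.3, adjusted p 0.092) and CD14 was 255 and 168, while CD3E (96.3 and 152) and PTPRC (74.4 and 85.3) lay toward Yorkshire, and their mean overlapped. The part of any of these values in the results was not tested, and in whole tissue fewer cells of a type and less RNA per cell cannot be told apart.

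Relative to the array median, most ribosomal protein probesets had a higher signal in Meishan endometrium. This lean was absent from the gene medians after quantile normalization, which gives every array the same distribution. Such scaling can also remove a rise shared by the brightest probesets, among which members were many. Of the 96 probesets named by the annotation, 73 (76%) lay toward Meishan, against 51.7% of all probesets. Their median log2 difference was 0.26, with 0.02 over all probesets. None was called, the lowest adjusted p being 0.185, where 0.908% of all probesets were called. The study's own list, called on these same samples with its mixed model at q under 0.1, names 38 of these 96 probesets. For 3 of them it gives another symbol. The paper reports RPL11, RPL12, RPL14, RPL17 and RPS2 as higher in Meishan, with translational elongation as the leading enriched term. The absence of calls here thus differs from the study's result, and the cause of that difference was not tested. An unadjusted p under 0.05 was found toward Meishan for 20 members (20.8%, with 7.79% of all probesets) and toward Yorkshire for 2 members (2.08%, with 6.96% of all probesets). The first of these counts varied with single gilts. Leaving out Meishan gilt 2, 3 or 4 gave 9, 5 or 10 (9.38%, 5.21% and 10.4%, with 7.19%, 6.27% and 6.36% of all probesets). Leaving out Yorkshire gilt 1, 2 or 4 gave 6, 5 or 10 (6.25%, 5.21% and 10.4%, with 6.83%, 7.25% and 7.29%). Without Meishan gilt 3, Yorkshire gilt 1 or Yorkshire gilt 2 the share of members was thus below that of all probesets. Without Meishan gilt 1 or Yorkshire gilt 3 the count was 16 or 21 (16.7% and 21.9%, with 8.42% and 7.13%). It was 2 after quantile normalization (2.08%, with 6.77% of all probesets), 4 after cyclic loess normalization (4.17%, with 6.61%) and 39 with signals below 32 raised to 32 (40.6%, with 7.6%). The 4 Meishan gilts lay above all 4 Yorkshire gilts at 33 members (34.4%, with 5.01% of all probesets), and below them at 2 (2.08%, with 5.09%). The number called changed with the settings of the test: with signals below 32 raised to 32 the count was 17 members (17.7%, with 3.6% of all probesets), and in an unmoderated linear model it was 5 (5.21%, with 0.946%). The lean toward Meishan was carried by bright probesets, with 55 of the 60 members at a mean signal of 4096 or more and 18 of the 36 members below it.

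Among large subunit genes, each taken at its brightest probeset, 31 of 38 lay toward Meishan with a median log2 difference of 0.21 (-0.0033 after quantile normalization). The lowest p of a bright gene belonged to RPL9. Its signal was 27403, 33495, 30148 and 27273 in the Meishan gilts and 20892, 19283, 21251 and 20476 in the Yorkshire gilts. The breeds did not overlap, and the log2 difference was 0.53 ± 0.16 (SE, adjusted p 0.195). RPL14 measured 28318, 24957, 29255 and 28738 in Meishan and 20329, 14756, 19740 and 20595 in Yorkshire, with the second Yorkshire gilt well below the other three. Its difference of 0.57 ± 0.18 was the largest of any annotated ribosomal protein gene with a mean signal of 4096 or more (adjusted p 0.210). RPL17, which lies at the exit of the peptide tunnel, measured 28001, 31246, 31884 and 30154 in Meishan against 22553, 20551, 23523 and 20286 in Yorkshire, a difference of 0.48 ± 0.15 (adjusted p 0.217). All 3 genes were separated by breed in every gilt and failed the threshold of the array-wide adjustment.

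A further group of core large subunit proteins lay close behind. RPL6 had 21462, 21824, 21332 and 23106 in Meishan and 16317, 15265, 18218 and 15553 in Yorkshire (0.43 ± 0.15). RPL12, a protein at the base of the stalk, had 18513, 16226, 19506 and 20104 against 14049, 12361, 14633 and 13702 (0.44 ± 0.16). RPL7 had 22537, 29441, 26042 and 22393 against 18498, 15714, 19508 and 18348 (0.47 ± 0.17). In each of these genes the lowest Meishan gilt lay above the highest Yorkshire gilt, with adjusted p values of 0.257, 0.266 and 0.269. RPL34 behaved alike, at 20049 to 23132 in Meishan and 14370 to 18385 in Yorkshire (0.42 ± 0.16, adjusted p 0.290), as did RPL4, which reaches into the peptide tunnel, at 19134 to 21081 and 14708 to 16098 (0.36 ± 0.15, adjusted p 0.312). The pair RPL5 and RPL11, which carry the 5S rRNA into the ribosome and bind MDM2 when assembly fails, had differences of 0.33 ± 0.16 and 0.34 ± 0.16 (adjusted p 0.381 and 0.369), and neither overlapped between the breeds.

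**Figure D1:**
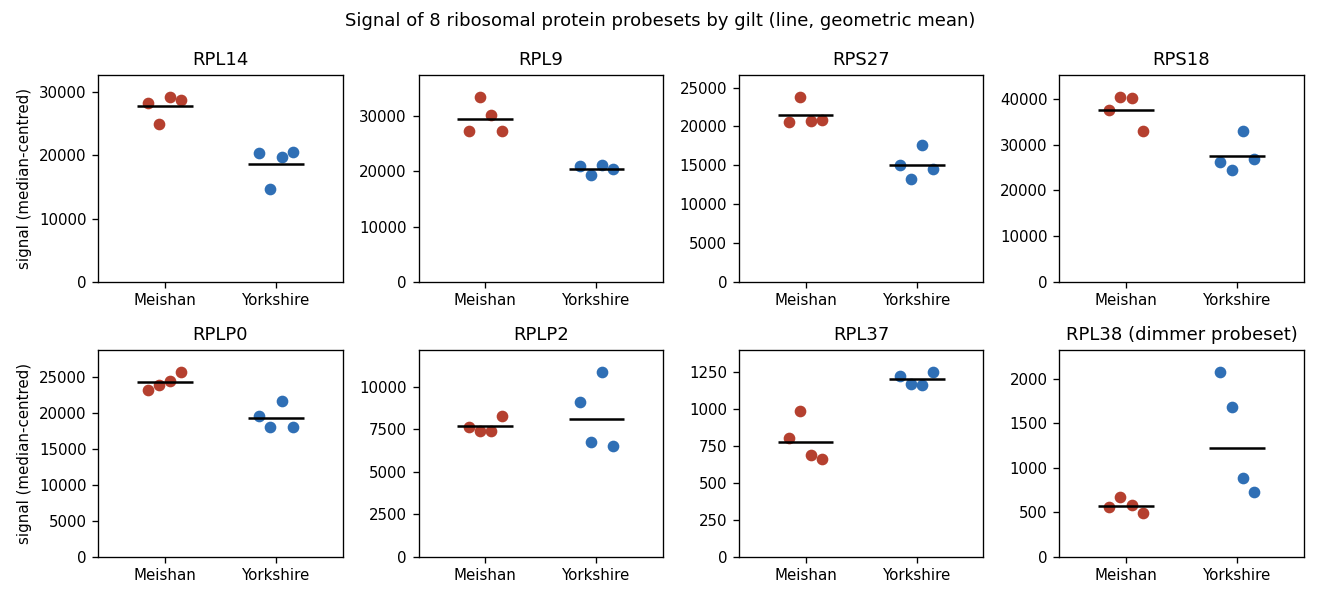
Median-centred signal (linear axis from 0) of 8 annotated probesets in 4 Meishan and 4 Yorkshire gilts, each point a gilt and each line a geometric mean. RPL14, RPL9, RPS27 and RPLP0 separate the breeds toward Meishan, RPS18 and RPLP2 overlap, and the dim probesets of RPL37 and RPL38 separate them toward Yorkshire.

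The stalk of the large subunit recruits the elongation factors, and RPLP0 anchors the dimers of RPLP1 and RPLP2. The anchor RPLP0 measured 23192, 23870, 24469 and 25769 in Meishan and 19533, 18058, 21688 and 18001 in Yorkshire, a difference of 0.34 ± 0.16 (adjusted p 0.368) without overlap. RPLP1 measured 16101, 21134, 17871 and 14093 against 16094, 13980, 15979 and 13304 (0.21 ± 0.19, adjusted p 0.649), and here the breeds overlapped. RPLP2 measured 7635, 7365, 7397 and 8263 against 9065, 6749, 10868 and 6509, a difference of -0.08 ± 0.21 (adjusted p 0.887). The Yorkshire gilts thus spread on both sides of the Meishan gilts for RPLP2, whose probeset was much dimmer than the other two.

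RPLP2 was among 5 large subunit genes with a mean signal of 4096 or more that lay toward Yorkshire, the others being RPL3, RPL8, RPL13 and RPL38. RPL3, which sits near the catalytic centre, measured 13270, 9723, 12938 and 13165 in Meishan and 12618, 11777, 15263 and 13020 in Yorkshire (-0.11 ± 0.18). RPL13 had -0.11 ± 0.18, RPL8 -0.06 ± 0.18 and RPL38 at its bright probeset -0.06 ± 0.18. All 5 differences were smaller than their SE and all 5 overlapped between the breeds. Their mean signals, 6103 to 15550, lay below the median of 15908 for the 33 bright large subunit genes.

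RPL32, a large subunit protein, served the study as the reference gene of its qRT-PCR. Its signal was 21497, 18114, 21799 and 20809 in Meishan and 18010, 16085, 17652 and 16892 in Yorkshire. The lowest Meishan gilt stood just above the highest Yorkshire gilt, with a log2 difference of 0.26 ± 0.16 (adjusted p 0.486). RPL32 was itself the median of the 33 bright large subunit genes, so the equal values are no comparison. After quantile normalization the difference was -0.02.

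Small subunit genes leaned further toward Meishan, 24 of 26 with a median of 0.35 (-0.0066 after quantile normalization), and all 23 with a mean signal of 4096 or more did so after median centring. RPS27, a zinc-binding protein of the small subunit, had the lowest p, with 20574, 23782, 20657 and 20815 in Meishan and 14974, 13285, 17581 and 14502 in Yorkshire (0.51 ± 0.17, adjusted p 0.221). RPS24 had 23604, 24598, 26040 and 23194 against 18830, 18220, 18288 and 18664 (0.40 ± 0.15, adjusted p 0.272). The 4 Yorkshire gilts agreed closely for RPS24, and neither gene overlapped between the breeds. RPS20, a protein of the head of the subunit, had 30723, 42080, 36100 and 30549 against 24286, 22675, 28078 and 24082 (0.48 ± 0.18, adjusted p 0.274). RPS18, also in the head and the brightest member named by the annotation, had 37578, 40412, 40094 and 32985 against 26270, 24473, 33048 and 26930 (0.45 ± 0.17, adjusted p 0.287). Here the third Yorkshire gilt reached the lowest Meishan gilt, so RPS18 overlapped while RPS20 did not.

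RPS6, which S6 kinase phosphorylates when nutrients are ample, measured 20849, 18567, 21891 and 18802 in Meishan and 15861, 14754, 14990 and 16509 in Yorkshire (0.37 ± 0.16, adjusted p 0.330). RPS27A, which is made as a fusion with ubiquitin, measured 28479, 29101, 30271 and 31868 against 23183, 21128, 26426 and 22056 (0.37 ± 0.16, adjusted p 0.332). RPS3A measured 26356, 29211, 29920 and 23244 against 20618, 19726, 21188 and 19395 (0.42 ± 0.16, adjusted p 0.288). None of these 3 overlapped between the breeds. RPS26, which lies where the mRNA leaves the subunit, differed by 0.39 ± 0.17, RPS28 by 0.40 ± 0.17, RPS29 by 0.37 ± 0.16 and RPS19, the gene most often mutated in Diamond-Blackfan anaemia, by 0.37 ± 0.16, with adjusted p values of 0.330 to 0.337 and no overlap. The supplementary list names the RPS19 probeset CD79A and the RPS29 probeset RPL37, so the identity of both rests on the annotation. RPSA, the laminin receptor precursor, had 17412 to 21282 against 14658 to 17681 and overlapped (0.23 ± 0.16, adjusted p 0.546), and RPS2 had 20073 to 22765 against 16398 to 21131 (0.22 ± 0.16, adjusted p 0.568). RPS15 was nearest to 0 among the bright small subunit genes, at 0.07 ± 0.17 (adjusted p 0.890).

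**Figure D2:**
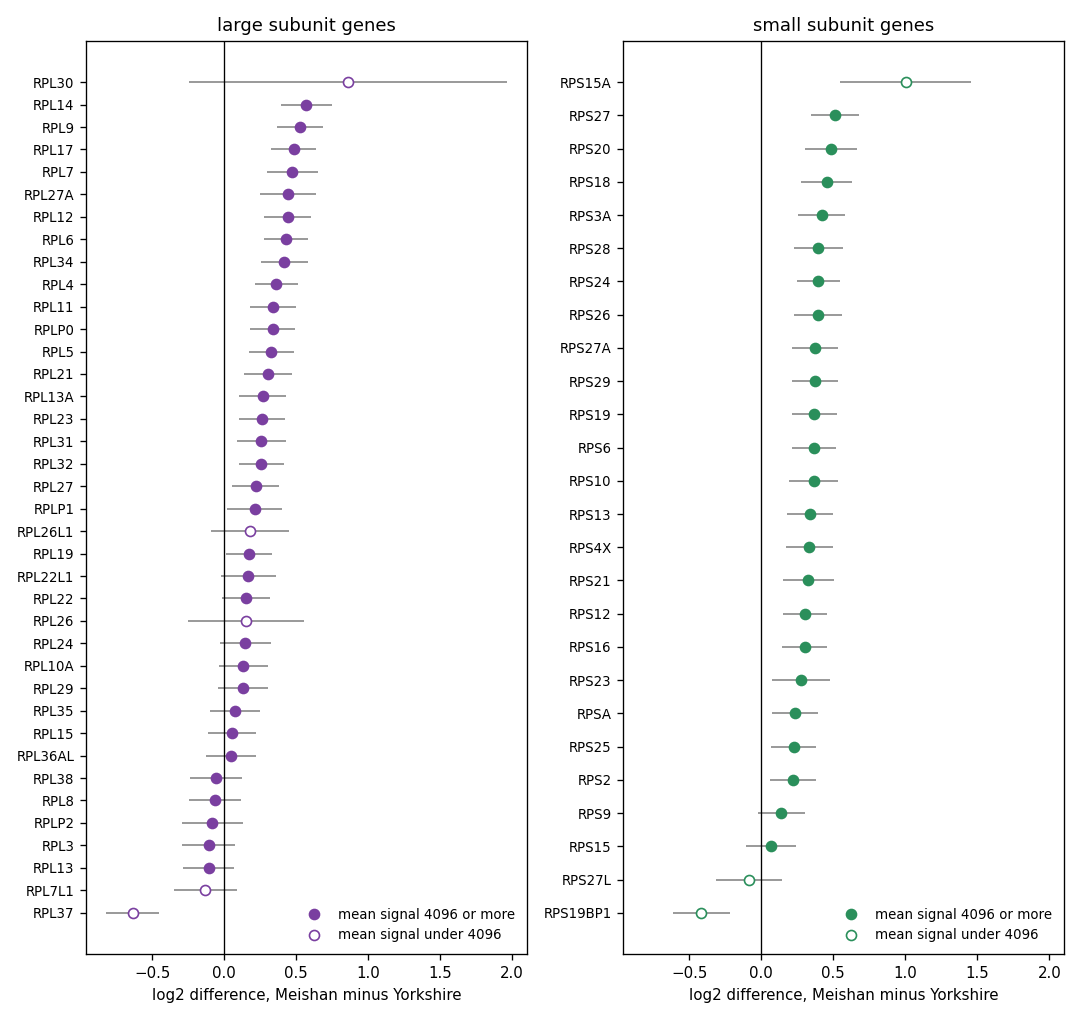
Log2 difference (Meishan minus Yorkshire, bars are SE) of 38 large and 26 small subunit genes at their brightest annotated probeset, filled where the mean signal is 4096 or more. After the median centring plotted here all 23 filled small subunit points and 28 of the 33 filled large subunit points lie to the right of 0, while after quantile normalization both medians are near 0.

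To compare the subunits within each gilt, the mean log2 signal of the large subunit genes was set against that of the small subunit genes. The gap itself reflects the probes as much as the mRNAs, so only its difference between breeds is of use. Large minus small was -0.26, -0.43, -0.44 and -0.40 in the Meishan gilts and -0.26, -0.30, -0.34 and -0.23 in the Yorkshire gilts. The first Meishan gilt fell inside the Yorkshire range, so the breeds overlapped, with means of -0.38 ± 0.08 and -0.28 ± 0.05 (SD, n = 4 each) and a difference of -0.10. Limited to the 56 genes with a mean signal of 4096 or more, a choice made after the values were seen, the gap was -0.32, -0.43, -0.44 and -0.35 in Meishan and -0.26, -0.30, -0.27 and -0.31 in Yorkshire, without overlap and again with a difference of -0.10. After cyclic loess normalization of the arrays this difference was -0.08 and the breeds overlapped, and after quantile normalization it was -0.01. Over all genes, with probesets named by the supplementary list admitted too, it was -0.04.

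**Figure D3:**
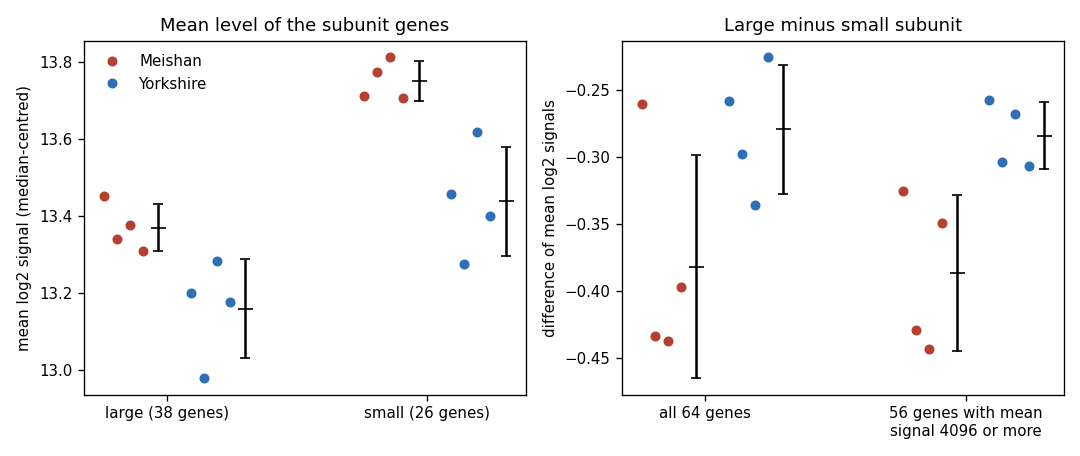
Left, mean log2 signal of large and small subunit genes in each gilt; right, large minus small for all 64 genes and for the 56 bright ones (points are gilts, black marks are means with SD, n = 4, and the axes do not start at 0). The first Meishan gilt lies inside the Yorkshire range for all genes and outside it for the bright genes.

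The probesets of the subunits differed in brightness, and the breed difference changed with brightness. The median mean signal was 19939 for the bright small subunit genes and 15908 for the bright large subunit genes. Within a range of signal the subunits were close: between 11585 and 16384 the median log2 difference was 0.16 for 14 large subunit probesets and 0.16 for 6 small subunit probesets, and between 16384 and 23170 it was 0.35 for 12 and 0.35 for 14. Above 23170 it was 0.37 for 4 large and 0.42 for 5 small subunit probesets. Across the 56 bright genes the log2 difference went with mean log2 signal (Pearson r = 0.77, Spearman rho = 0.77). The same r and rho were 0.65 and 0.65 after cyclic loess normalization and 0.03 and -0.08 after quantile normalization, where r was 0.20 within the large and -0.53 within the small subunit genes. These points are genes measured on the same 8 arrays and are not independent replicates.

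Other bright probesets had similar differences. Probesets that were not members still held the small subunit proteins FAU and RACK1 and the 6 ribosomal probesets left out for several symbols. Of these non-members, the median log2 difference was -0.09 between signals of 1024 and 4096 (2928 probesets) and 0.18 between 11585 and 16384 (50). It was 0.27 between 16384 and 23170 (25, FAU and RACK1 among them) and 0.56 above 23170 (28). In the brightest of these ranges all 28 lay toward Meishan, as did all 9 ribosomal protein probesets, whose median there was 0.42. In the next range 24 of 25 others and all 26 ribosomal protein probesets did so, with medians of 0.27 and 0.35. Scaling methods that act on the whole range of signal removed much of this. After cyclic loess normalization 50 of the 64 genes still lay toward Meishan, with medians of 0.09 for large and 0.19 for small subunit genes. After quantile normalization 30 lay toward Meishan and 34 toward Yorkshire, and both medians were within 0.01 of 0. The lean of ribosomal protein genes toward Meishan was thus measured relative to the array median, and their medians were near 0 once the arrays shared a distribution. With 26 members beside 25 non-members between 16384 and 23170, a shared distribution can also remove a rise of the family itself. Such a rise and a difference in scale between the arrays cannot be told apart here.

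**Figure D4:**
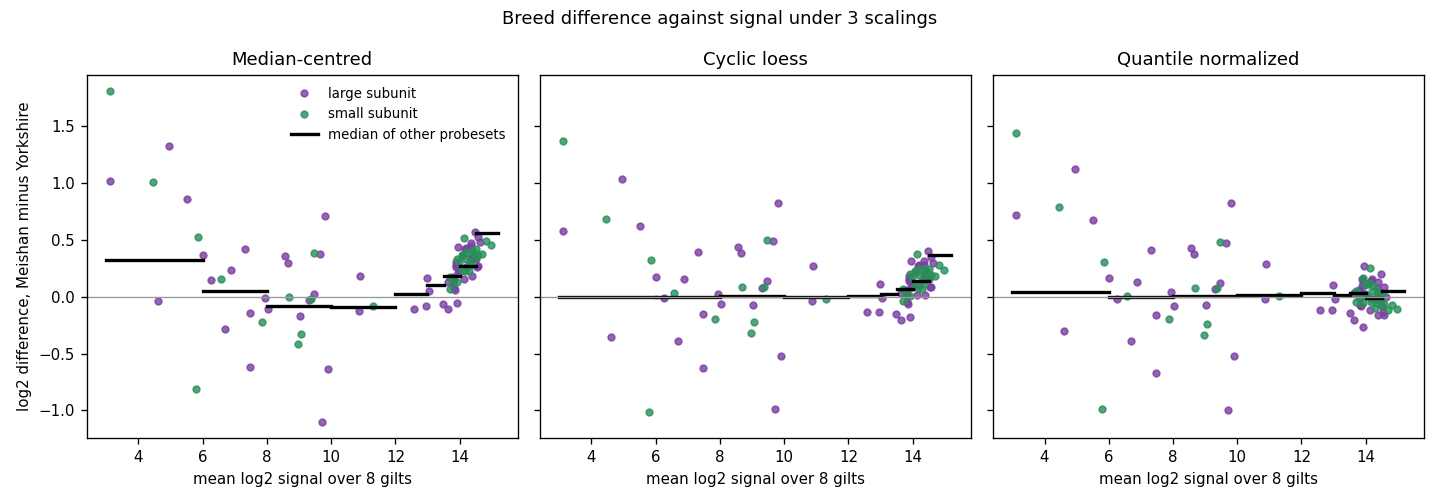
Log2 difference (Meishan minus Yorkshire) against mean log2 signal for the 96 annotated ribosomal protein probesets under 3 scalings. Black lines are the median of the probesets that were not members, in each range of signal. Bright members follow the rising black line after median centring and lie around 0 after quantile normalization.

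The ribosomal RNA control probesets moved in the same direction. The 28S rRNA of the large subunit had signals of 4916, 6385, 4910 and 4403 in Meishan and 2310, 1832, 2298 and 2109 in Yorkshire at one probeset, a log2 difference of 1.26, and 5531 to 8966 against 1470 to 3512 at the other (1.74), both without overlap. The 18S rRNA of the small subunit had 1832, 3239, 2245 and 2292 against 1001, 678, 851 and 699 at one probeset (1.56), and 5798, 7285, 6455 and 4568 against 4616, 4454, 5557 and 4690 at the other (0.30). The first 18S probeset separated the breeds and the second overlapped, as did 5S rRNA (240 to 306 against 198 to 385). Control probesets were not part of the test, the labelling starts from poly-A tails, which mature ribosomal RNA lacks, and the added hybridization controls also differed, by 1.00, so these values are a description.

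Genes with several probesets allowed a bright and a dim reading of the same gene. There were 24 such genes, and the brightest probeset lay toward Meishan in 23 of them with a median of 0.34. The dimmest lay toward Meishan in 13 with a median of 0.09, and in 9 of 18 where it reached a mean signal of 64. In RPL31 and RPS18, both counted there, even the dimmest was bright (mean signals 21199 and 13252) and lay toward Meishan (0.18 and 0.17). Brightest and dimmest lay on the same side in 14 genes and on opposite sides in 10. The log ratio of the 2 probesets was tested between breeds over 2261 genes of the array. None of the 24 ribosomal protein genes was called (0.31% of all were), and 4 had an unadjusted p under 0.05 (12.1% of all did).

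RPS27 led this list. Its dim probeset measured 550, 413, 646 and 357 in Meishan and 711, 481, 665 and 573 in Yorkshire (-0.33 ± 0.25), while its bright one, given above, stood at 0.51. The readings of the one gene differed by 0.84 ± 0.27 on the log2 scale (adjusted p 0.286). RPS28 read 0.40 at its bright and -0.81 ± 0.44 at its dim probeset (adjusted p of the gap 0.331), where the mean signal was only 55.2. RPL38, known for its role in translating Hox mRNAs, differed by 1.04 ± 0.39 (adjusted p 0.350) and RPL34 by 0.71 ± 0.26 (adjusted p 0.355). RPLP0, RPLP1, RPL6 and RPS27A followed with the same order, the bright reading toward Meishan by 0.21 to 0.43 and the dim one between -0.15 and -0.01. RPS25 and RPL13A ran the other way, with dim readings of 1.80 ± 0.93 and 1.02 ± 0.48, at mean signals of 8.67 and 8.66 where single gilts ranged from 2.38 to 42.4 and from 3.99 to 17.5.

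The most annotated probesets a gene had was 3, in 8 genes. From the brightest to the dimmest, RPL12 gave 0.44, 0.36 and 1.32, RPL13A 0.27, 0.42 and 1.02, RPL23 0.26, 0.37 and 0.03, RPL27 0.22, 0.28 and 0.23, and RPL9 0.53, -0.62 and -0.04. Of the small subunit, RPS18 gave 0.45, 0.13 and 0.17, RPS25 0.23, -0.22 and 1.80, and RPS28 0.40, -0.002 and -0.81. The readings of RPL27, 2 of them bright, agreed within their SE, while those of RPL9 did not share a side. In 8 cases an annotated pair came from the same transcript cluster, with names that differ only in the letter A or S, and the bright one was 19 to 152 times as bright as the other. In 5 the bright one carried the A and in 3 the S. All 8 bright ones and 6 of the 8 dim ones lay toward Meishan. RPL17 was such a pair, and its dim probeset, at 883, 1087, 1510 and 1178 in Meishan and 760, 584, 560 and 970 in Yorkshire, differed by 0.71 ± 0.25 (adjusted p 0.259).

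**Figure D5:**
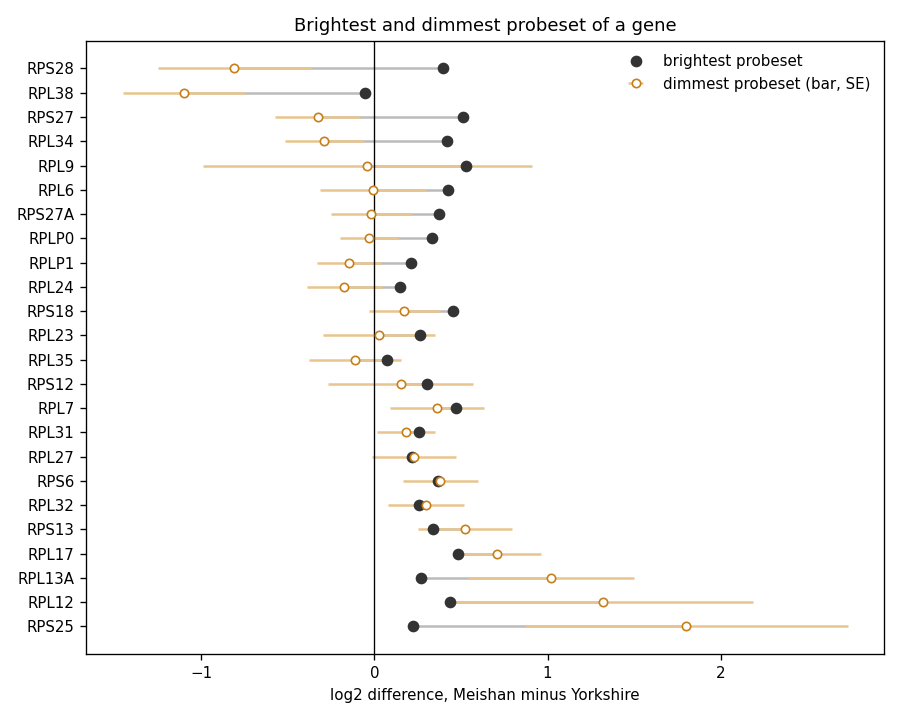
Log2 difference (Meishan minus Yorkshire) at the brightest (filled) and dimmest (open, with SE) annotated probeset of 24 ribosomal protein genes, ordered by the gap between them. The filled points cluster to the right of 0 while the open points spread on both sides.

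The 2 annotated members with an unadjusted p under 0.05 toward Yorkshire were both dim. RPL37, measured by annotation at 1 probeset only, had 803, 984, 686 and 658 in Meishan and 1225, 1168, 1159 and 1252 in Yorkshire, a log2 difference of -0.64 ± 0.18 with the lowest adjusted p of the annotated members, 0.185. The dim probeset of RPL38 had 558, 677, 577 and 491 against 2083, 1683, 890 and 722 (-1.10 ± 0.35, adjusted p 0.218). Neither overlapped between the breeds, though the Yorkshire gilts spread widely for RPL38. RPL30, RPL26 and RPS15A were also named by annotation at dim probesets alone (mean signals of 45.1, 76.6 and 22.0), with differences of 0.86 ± 1.10, 0.15 ± 0.40 and 1.00 ± 0.46 that all overlapped.

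Of the 6 paralogs and partner genes none was called at its annotated probeset. RPL22L1, a paralog of RPL22, had 9678, 6876, 8134 and 10064 in Meishan and 8510, 7251, 8199 and 6786 in Yorkshire (0.17 ± 0.19, adjusted p 0.730). RPL26L1 differed by 0.18 ± 0.27, RPL36AL by 0.05 ± 0.17, RPS27L, a p53 target, by -0.09 ± 0.23 and RPL7L1, an assembly factor of the large subunit, by -0.13 ± 0.22. All 5 overlapped and had adjusted p values of 0.730 to 0.924. RPS19BP1, which is a partner of RPS19 and SIRT1 and not a ribosomal protein, had 376 to 525 in Meishan and 499 to 704 in Yorkshire (-0.42 ± 0.20, adjusted p 0.378).

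The 38 members that entered through the supplementary list alone were chosen there for their breed difference, so their values support nothing here. For 17 of them the annotation gave another gene or several symbols, and for 21 none. The RPL10 probeset and the bright RPL35A probeset were annotated with that symbol beside a second gene, ANAPC11 and LMLN. Of the genes, 13 were reached only this way. At 4096 or more, 19 of 20 lay toward Meishan with a median of 0.35, among them RPL10 (0.44), RPL26 (0.43), RPL23A (0.39), RPL35A (0.36), RPS3 (0.34), RPL18 (0.27) and RPL36A (0.26). Below 4096, 13 of 18 did so, with values of up to 2.47. The 5 dimmest were RPS2 probesets at mean signals of 82.0 and 166, RPS28 at 104, RPL35A at 160 and RPL36A at 163, with differences of 1.11, 1.38, 1.09, 1.69 and 1.08. Among those toward Yorkshire were probesets of RPL17 (-0.45), RPL35 (-0.76), RPL37 (-0.53), RPL37A (-0.51) and RPS4X (-0.56). The RPS4X probeset is CTNNB1 by annotation, and the probeset annotated as RPS4X stood at 0.33 ± 0.16, on the other side. A second probeset listed as RPL22L1 differed by 1.69 against 0.17 at the annotated one, and a probeset listed as RPL14, which is TNFAIP1 by annotation, ranged from 21.0 to 505 within Yorkshire and stood at 2.47.

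Other parts of the translation machinery were read from fixed lists, at the brightest annotated probeset. Of other mRNAs with a terminal oligopyrimidine start, 13 of 16 lay toward Meishan with a median of 0.29, 0 called (0.908% of all probesets were) and 2 with an unadjusted p under 0.05 (toward Meishan 7.79% of all had one). These were TPT1, the growth-related tumour protein, at 30776 against 21080 (0.55 ± 0.18, adjusted p 0.217), and VIM (0.47 ± 0.16, adjusted p 0.245). The elongation factor subunit EEF1B2 differed by 0.32 ± 0.15 and EEF1G by 0.30 ± 0.16, and NAP1L1 by -0.38 ± 0.20. FAU and RACK1, small subunit proteins whose symbols lie outside the rule, differed by 0.06 ± 0.17 and 0.20 ± 0.16. Of 9 measured regulators of ribosomal protein mRNA translation, 6 lay toward Meishan (median 0.21) with 0 called and 0 at an unadjusted p under 0.05, among them the mTOR activator RHEB at 0.28 ± 0.25. Of 12 assembly and export genes, 9 did so (median 0.11) with 0 called and 1 at an unadjusted p under 0.05, the nuclear exporter XPO1 at 821 against 301 (1.45 ± 0.44, adjusted p 0.196). Of 10 genes for transcription of ribosome components, 4 did so (median -0.04) with 0 called and 0 at an unadjusted p under 0.05. MYC stood at 0.11 ± 0.21.

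The probesets most like the mean of the 64 ribosomal protein genes over the 8 gilts, among 9962 others with 1 gene symbol, were VMO1 (Pearson r = 0.97), CAPSL (0.96), EIF3H (0.96), SUMF1 (0.96) and VSIG4 (0.95). EIF3H, a subunit of initiation factor 3, also stood in the list of oligopyrimidine mRNAs, with 8558 in Meishan and 6852 in Yorkshire. The correlations span both breeds and only 8 arrays, and describe likeness alone.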

How the data were processed

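The authors converted the scans to linear intensity values (signals) with GCOS 1.2, and these deposited intensities, scaled by the authors to a common trimmed mean, were used. The authors took natural logs and fitted a mixed model with slide and animal terms. Here log2 signals were taken, the median of the 23999 non-control probesets was set equal on all arrays, and the breeds were compared with limma 3.58.1 in R 4.3.3 (prior degrees of freedom 2.09), calling at an adjusted p under 0.1. The number of arrays limits precision, and detection calls were not used. The test was tried on simulated data. No sequences were matched, and probesets are named as the annotation of the array gives them (6 with several symbols left out). All 96 Entrez identifiers matched and 0 symbols changed.

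A gene was taken at its brightest annotated probeset. For genes with several, the log ratio of brightest to dimmest was fitted over 2261 genes. Members and lists were chosen with earlier results of these data known. Named are, by a rule, the 8 large and 8 small subunit genes with the lowest p, stalk genes, RPSA, RPL32, genes that the study names, paralogs, members toward Yorkshire with an unadjusted p under 0.05, the 6 largest differences at a signal of 64, and genes with several probesets (10 with the lowest p, 5 with most probesets, taken by name among 8 tied at 3). RPL3, RPL4, RPL5, RPL8, RPL13, RPL26, RPL30, RPS4X, RPS15, RPS15A, RPS19, the middle probesets of RPS18, RPS25 and RPS28, RPS29 and the further members of the fixed lists and of the supplementary list were chosen after their values were seen. Some members are not reported here. Alternatives were the scaling of the authors alone, cyclic loess or quantile normalization, leaving dim probesets out, raising signals to at least 32, an intensity trend, an unmoderated model, array weights, calling at 0.05, blocking on replicate number, dropping each gilt, all probesets of a gene, both name sources, genes without paralogs, and, added after seeing the data, genes of 4096 or brighter. Gilts that share a replicate number did not deviate together (correlations of -0.056, 0.089, 0.001 and 0.041), so the numbers pair nothing.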

Additional observations from a re-analysis of the deposited data

Results flagged for a closer look

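In groups of 4 gilts, 1 gilt stood far from the other three at 8 of the 134 breed groups examined for the named probesets, and chance alone gives about 1 in 20. RPL14 measured 14756 in Yorkshire gilt 2, with 19740 to 20595 in the others. RPL27 measured 19869 in Meishan gilt 1, with 16673 to 16743 in the others, RPL3 measured 9723 in Meishan gilt 2, with 12938 to 13270, and RPS27 measured 23782 in Meishan gilt 2, with 20574 to 20815. The remainder were dim probesets. RPL6 measured 381.5 in Meishan gilt 3 (others 202.4 to 222.3), RPL9 318.4 in Yorkshire gilt 1 (185.9 to 202.5), RPL30 10.69 in Meishan gilt 4 (87.5 to 128.5) and RPL13A 5.328 in Meishan gilt 2 (15.17 to 17.45).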

How the results depend on the processing

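The count of annotated ribosomal protein probesets called was 0 without further scaling, after cyclic loess or quantile normalization and without the dim probesets. It was also 0 with array quality weights, at a threshold of 0.05, with the replicate block and with each gilt left out. It was 17 with signals below 32 set to 32 (3.6% of all probesets called), 5 in the unmoderated model (0.946%) and 1 with an intensity trend in the prior (2.61%). The count with an unadjusted p under 0.05 toward Meishan was 20 as reported, 2 after quantile and 4 after cyclic loess normalization, 39 with the floor (7.6% of all probesets), 39 in the unmoderated model (7.1%) and 4 with the replicate block (7.74%), which called 0 of all probesets. It ran from 5 to 21 when 1 gilt was left out (5.21% to 21.9% of members, with 6.27% to 8.42% of all probesets). The median of large subunit genes was -0.0033 after quantile and 0.087 after cyclic loess normalization, that of small subunit genes -0.0066 and 0.19, and large minus small moved to -0.013 after quantile normalization. With 1 gilt left out these ran from 0.18 to 0.26, 0.31 to 0.39 and -0.14 to -0.085. The alternatives for probesets of a gene, names, paralogs and brightness moved them by less than the SD between gilts, though adding the supplementary names took large minus small from -0.10 to -0.041. The test of brightest against dimmest probesets gave 0 calls under each alternative.

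Of 1132 values of 67 named probesets under alternatives, 61 changed side. After quantile normalization these were RPL11 -0.0043, RPL13A -0.17, RPL17 -0.0022, RPL26 -0.023, RPL32 -0.024, RPL36AL -0.020, RPL5 -0.079, RPLP0 -0.031, RPS15 -0.047, RPS18 -0.11, RPS19 -0.062, RPS2 -0.10, RPS20 -0.077, RPS25 -0.049, RPS27A -0.12, RPS27L 0.0085, RPS29 -0.034 and RPSA -0.005, and at dim probesets RPL6 0.041, RPLP0 0.066 and RPS27A 0.071. After cyclic loess they were RPL26 -0.0087, RPL36AL -0.011 and RPS15 -0.043, and at dim probesets RPL6 0.024, RPLP0 0.076 and RPS27A 0.087. Without further scaling they were RPL38 0.00605, and at dim probesets RPL6 0.053, RPL9 0.023, RPLP0 0.031 and RPS27A 0.041. Array weights gave RPL6 0.16 and RPL9 0.20 at dim probesets, and the floor gave RPL9 0.34. With a gilt left out, the ranges that crossed 0 were RPL23 (dim) -0.12 to 0.34, RPL26L1 -0.00029 to 0.32, RPL36AL -0.016 to 0.13, RPL6 (dim) -0.22 to 0.20, RPL9 (dim) -0.51 to 0.96, RPL3 -0.16 to 0.0015, RPL8 -0.13 to 0.019, RPS27A (dim) -0.20 to 0.10, RPLP0 (dim) -0.093 to 0.041, RPS27L -0.24 to 0.025, RPL26 -0.20 to 0.46, RPL38 -0.13 to 0.031 and RPLP2 -0.19 to 0.057. The cause of these shifts was not tested.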
